A study of Homo sapiens with 4 samples.

Results

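The genes described here are 9 genes of TGF-beta signalling and its SMAD targets: the ligand genes TGFB1 and TGFB2, the feedback genes SMAD7, SKIL, SKI and PMEPA1, and ID1, ID2 and ID3. They were chosen by name, with earlier results of these data known. They are 9 of 19974 protein-coding genes on chromosomes 1 to 22 and X. For each gene, every RNA polymerase II (Pol II) peak from 10000 bp before the gene to 10000 bp after it was taken. The windows held 42 of the 26387 peaks of the NKAP knockdown list and 84 of the 36345 peaks of the control list. U2OS cells, a human osteosarcoma line, were transfected for 48 h with an siRNA against NKAP (label NKAP KD) or with a control siRNA (label NC), and Pol II was mapped by chromatin immunoprecipitation and sequencing (ChIP-seq). NKAP is a nuclear protein that acts in RNA splicing and transcriptional repression, and the series title names the distribution of Pol II in NKAP-depleted cells as its subject. Each siRNA had 1 Pol II library, so the differences below rest on single libraries, without replicates, and were not tested. The labels also list 1 input library (sheared chromatin without antibody) per siRNA, which was not analysed here.

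TGF-beta ligands are secreted in a latent form, and once released they bind receptor kinases that phosphorylate SMAD proteins, which then enter the nucleus and act on target genes. The pathway restrains itself: SMAD7 competes for the receptor and recruits ubiquitin ligases, SKI and SKIL (SnoN) are corepressors that bind the SMADs, and PMEPA1 is a membrane protein that keeps SMADs from the receptor. ID1, ID2 and ID3 encode helix-loop-helix proteins without a DNA-binding region, which hold back other transcription factors of that class and are targets of the SMADs activated by bone morphogenetic proteins. A peak is a stretch where sequencing reads of the ChIP library pile up over the background. Its width shows how far Pol II was detected along a gene, and its summit is the point with the most reads.

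The strongest gene-end peaks had their summits on or within 1000 bp of the sequences that follow, which is why they are shown, with 1 start for each gene. They are RefSeq promoter sequences of GRCh38.p14, 280 bases each, of which 250 lie before the gene start. The table held 8 of the 9 genes, SKI being the other. Capitals mark matches to 4 motifs: CAGAC (the SMAD core, GTCTG on the other strand), GTCTAGAC (its palindrome), GGCGCC (a GC-rich SMAD element) and TATAAA (the TATA box, TTTATA on the other strand).
TGFB1 (chr19:41353893-41354172, minus strand): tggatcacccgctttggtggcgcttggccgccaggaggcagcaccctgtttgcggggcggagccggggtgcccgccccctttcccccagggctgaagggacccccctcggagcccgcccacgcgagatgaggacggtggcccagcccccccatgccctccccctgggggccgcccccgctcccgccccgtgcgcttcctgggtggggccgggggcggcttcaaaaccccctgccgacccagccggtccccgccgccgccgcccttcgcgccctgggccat
TGFB2 (chr1:218345086-218345365, plus strand): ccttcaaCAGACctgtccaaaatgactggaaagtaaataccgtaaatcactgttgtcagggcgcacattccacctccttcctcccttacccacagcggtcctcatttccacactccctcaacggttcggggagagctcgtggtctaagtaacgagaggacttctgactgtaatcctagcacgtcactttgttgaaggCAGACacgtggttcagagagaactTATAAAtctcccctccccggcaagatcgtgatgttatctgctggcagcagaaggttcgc
SMAD7 (chr18:48950936-48951215, minus strand): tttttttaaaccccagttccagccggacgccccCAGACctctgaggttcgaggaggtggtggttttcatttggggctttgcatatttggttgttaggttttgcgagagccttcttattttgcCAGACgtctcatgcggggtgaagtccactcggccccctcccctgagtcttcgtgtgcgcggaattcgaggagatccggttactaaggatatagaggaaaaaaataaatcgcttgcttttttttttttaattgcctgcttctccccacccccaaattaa
SKIL (chr3:170357465-170357744, plus strand): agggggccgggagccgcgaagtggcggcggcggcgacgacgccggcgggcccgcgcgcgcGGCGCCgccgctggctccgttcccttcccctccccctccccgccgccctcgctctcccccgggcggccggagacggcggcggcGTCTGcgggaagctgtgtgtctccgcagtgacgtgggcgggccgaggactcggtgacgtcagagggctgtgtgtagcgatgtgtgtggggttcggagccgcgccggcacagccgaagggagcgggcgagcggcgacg
PMEPA1 (chr20:57709986-57710265, minus strand): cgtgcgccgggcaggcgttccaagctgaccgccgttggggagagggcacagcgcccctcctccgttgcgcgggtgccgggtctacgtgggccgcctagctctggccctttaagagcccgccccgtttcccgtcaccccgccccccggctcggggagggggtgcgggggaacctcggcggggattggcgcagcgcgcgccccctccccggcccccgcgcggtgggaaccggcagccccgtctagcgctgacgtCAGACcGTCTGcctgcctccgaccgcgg
ID1 (chr20:31605039-31605318, plus strand): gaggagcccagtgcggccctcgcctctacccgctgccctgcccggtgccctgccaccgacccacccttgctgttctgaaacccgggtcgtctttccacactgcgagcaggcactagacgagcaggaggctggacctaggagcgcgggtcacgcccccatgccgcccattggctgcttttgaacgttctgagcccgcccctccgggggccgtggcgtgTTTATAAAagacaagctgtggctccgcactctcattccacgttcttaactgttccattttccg
ID2 (chr2:8681806-8682085, plus strand): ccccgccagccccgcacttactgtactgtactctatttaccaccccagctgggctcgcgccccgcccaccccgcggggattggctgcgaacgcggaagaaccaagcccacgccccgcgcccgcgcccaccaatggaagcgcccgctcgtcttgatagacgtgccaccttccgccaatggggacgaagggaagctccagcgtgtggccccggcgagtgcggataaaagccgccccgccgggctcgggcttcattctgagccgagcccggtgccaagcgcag
ID3 (chr1:23559472-23559751, minus strand): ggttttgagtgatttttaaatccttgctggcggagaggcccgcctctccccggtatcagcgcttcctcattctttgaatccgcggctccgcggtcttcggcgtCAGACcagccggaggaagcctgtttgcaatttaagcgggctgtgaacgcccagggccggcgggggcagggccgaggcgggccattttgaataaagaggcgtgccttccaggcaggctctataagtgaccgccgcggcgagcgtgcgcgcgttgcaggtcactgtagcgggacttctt

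Among the 34961 promoters of the table, each searched on both strands over 300 bases, the SMAD core was found in 45.3%, its palindrome in 0.197%, the GC-rich element in 19.3% and the TATA box in 11.5%. The genes have 13 annotated starts in the table, and the core was found at 8 of these, in TGFB2, SMAD7, SKIL, PMEPA1 and ID3. TGFB2 held the core 53 and 243 bases before its start and SMAD7 128 and 217 bases before its outermost start. The GC-rich element was found at 2 of the 13 starts, in SKIL and PMEPA1. The TATA box was found at 3, in TGFB2, SMAD7 and ID1. It lay 29 bases before the start of TGFB2. At SMAD7 it lay 35 bases before the start at 48949333, which is not shown above. At ID1 the TATA letters lay on both strands, beginning 33 and 31 bases before the start. None of the 13 starts held the palindrome in this window. These matches describe letters only.

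The summits lay close to the starts of the ID genes in both libraries. At ID1 the summit was 51 bp after the start in the knockdown library and 49 bp after it in the control library. At ID2 it lay 46 bp after the start in the knockdown library, and in the control library 10 bp before it. At ID3 it was 102 bp after the start in the knockdown library and 40 bp before it in the control library. At TGFB1 it lay 74 bp (knockdown) and 193 bp (control) after the start, and at TGFB2 235 bp (knockdown) and 505 bp (control) after it. PMEPA1 has 4 annotated starts, and its strongest summits lay 163 bp (knockdown) and 117 bp (control) after the one at 57710015 shown above. SMAD7 was unlike these: its strongest summits lay upstream of the outermost start, by 705 bp in the knockdown library and 857 bp in the control library. SKIL differed between the lists, with its summit 110 bp after the start in the knockdown library and 714 bp before it in the control library.

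Both lists held a peak within 1000 bp of an end of each of the 9 genes. Over all protein-coding genes 56.5% had such a peak in the knockdown list and 59.9% in the control list, and of the genes with one in either list 89.7% had one in both. Sequencing depth was estimated at 0.857 in the knockdown library relative to the control. The weakest listed peak had a −log10 q-value of 3.02 (knockdown) or 3.01 (control), so Pol II below that is not seen. Over their whole length the lists covered 23.9 Mb (knockdown) and 38.6 Mb (control), a difference that touches each comparison of covered length. NKAP itself carried such a peak in each library, with a fold enrichment over background, the authors' value, of 6.90 (knockdown) and 6.07 (control). An siRNA acts on the transcript, so this does not check the knockdown. Of 8 osteoblast lineage genes 4 had a gene-end peak in each list (SP7, BGLAP, SPARC and COL1A1), and RUNX2, ALPL, SPP1 and COL1A2 had none. Fewer cells with Pol II at a gene and less Pol II per cell cannot be told apart in such libraries.

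Less of the sequence around the genes was covered by peaks after NKAP knockdown, and this held for each of the 9. Together the windows had 44768 bp under peaks in the knockdown list and 103793 bp in the control list, a ratio of 0.431. With the control list limited to peaks that would pass at the knockdown depth, their widths left as listed, the ratio was 0.439. By gene the ratio ran from 0.0938 at TGFB2 to 0.725 at ID1, with a median of 0.425. Over the 14560 protein-coding genes with any control cover the median ratio was 0.647, with quartiles of 0.461 and 0.822. Covered length was at least 1.5-fold lower in the knockdown list at 6 of the 9 genes and at least 1.5-fold higher at none. Over all genes with any cover those shares were 51.9% and 4.54%, and cover was lower at all in 86.9%. A count of 6 of 9 is therefore near what all genes gave. The 6 were TGFB1, TGFB2, SMAD7, SKIL, PMEPA1 and ID2.

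**Figure D1:**
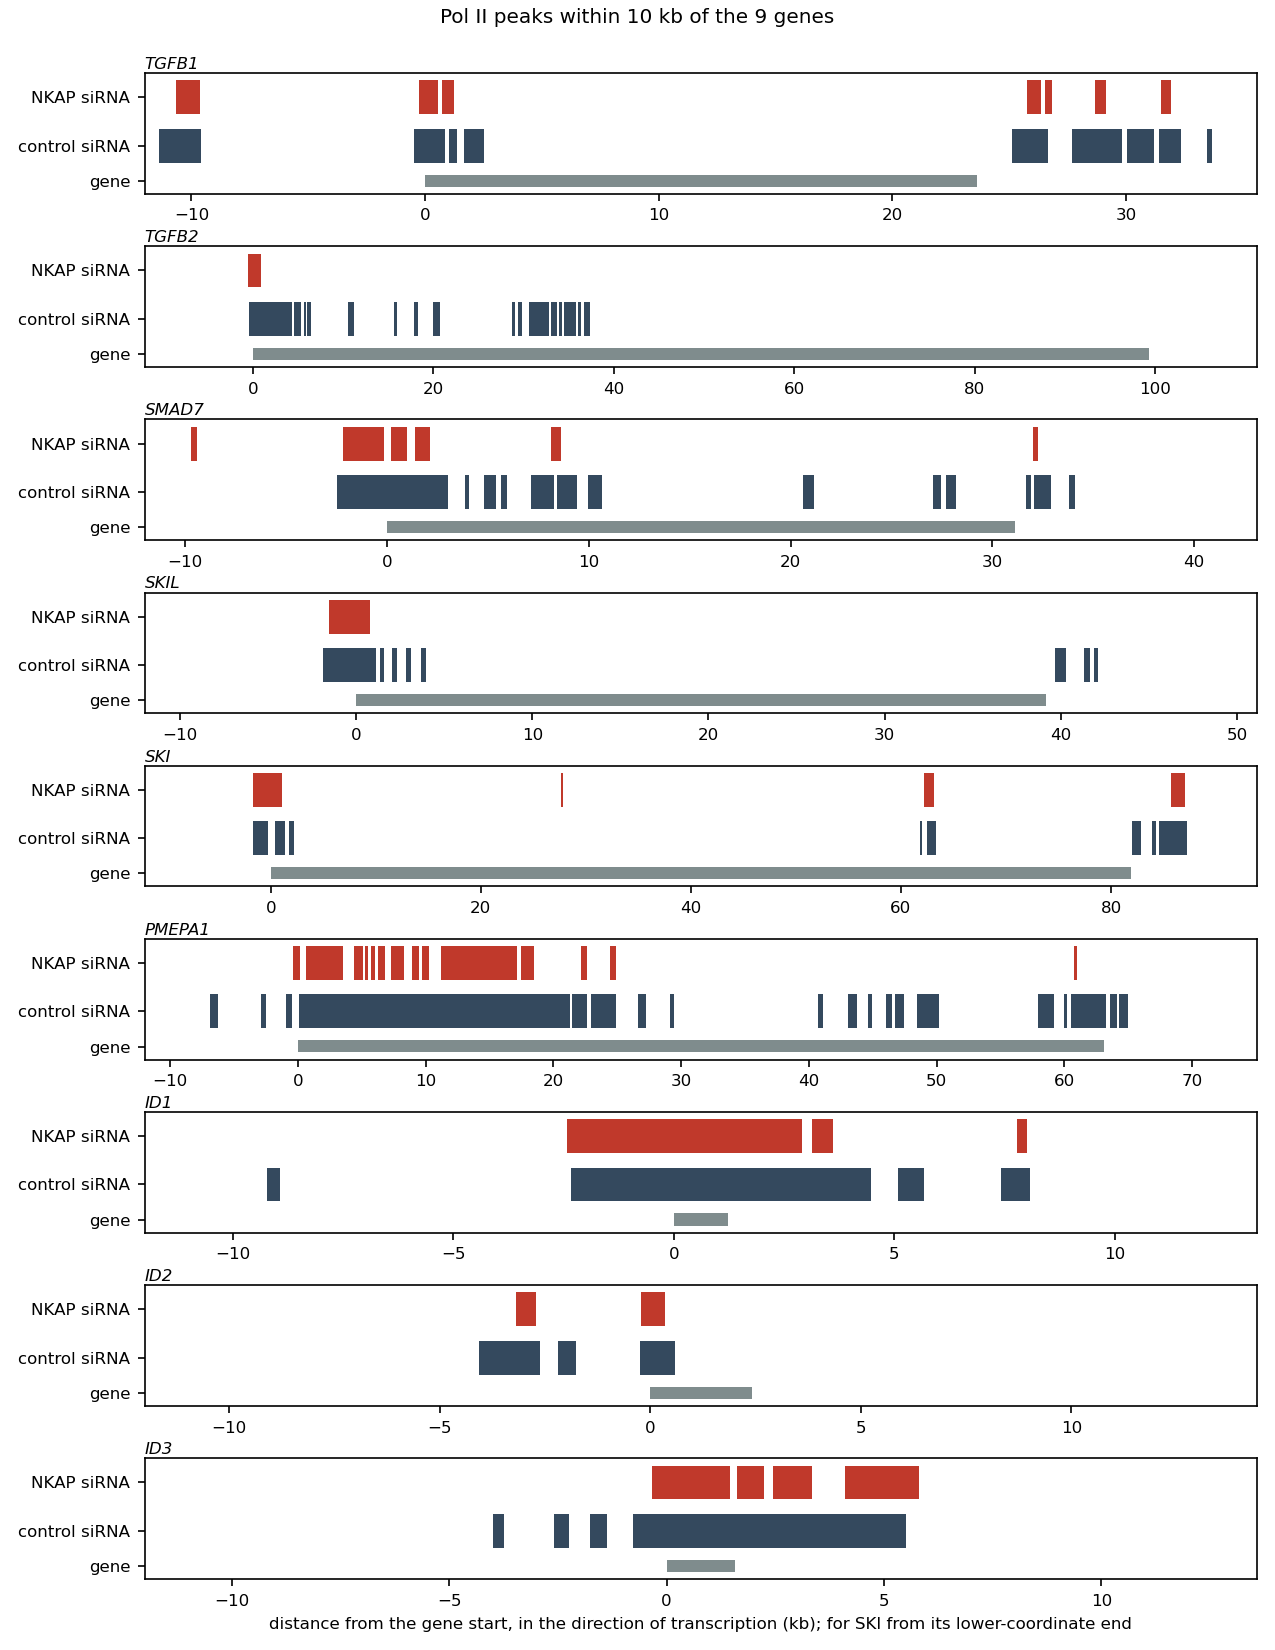
Peaks within 10000 bp of each gene, drawn to scale by distance from the gene start (SKI from its lower-coordinate end), with the NKAP siRNA library above the control siRNA library and the gene as a grey bar. Both libraries have a peak within 1000 bp of an end of each gene, and most further control peaks inside TGFB2, SMAD7, SKIL and PMEPA1 have none above them.

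The peaks found in a single library were nearly all control peaks, and most had low folds. A control peak overlapped 40 of the 42 knockdown peaks, 95.2% (95% Wilson interval 84.2 to 98.7), where 82.8% of all knockdown peaks were overlapped. A knockdown peak overlapped 25 of the 84 control peaks, 29.8% (21.0 to 40.2), where 54.2% of all control peaks were. These intervals cover counting error only, and peaks of 1 gene are not independent. The 59 control peaks without a knockdown partner had folds from 3.81 to 10.3 with a median of 5.60, and the 25 with one had a median fold of 8.70. The median summit of the 59 held 14 reads. The counts of overlapped peaks differ (40 and 25) because single wide control peaks met several knockdown peaks.

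TGFB2, the ligand gene on chromosome 1 (218345336 to 218444619, plus strand), had the lowest ratio of covered length of the 9. It had 1 knockdown peak, 1375 bp wide, against 16 control peaks. The knockdown peak reached from 502 bp before the start to 872 bp after it. The control peaks ran in a broken series to 37328 bp inside the gene, the first of them 4761 bp wide. Inside the gene 873 bp were covered in the knockdown list and 14220 bp in the control list, which is 0.879% (knockdown) and 14.3% (control) of its length. The 15 control peaks without a partner had folds from 4.01 to 10.3 and 10 to 24 reads at the summit. The strongest of these lay 32122 bp after the start, was 2233 bp wide and held 21 reads. From 37328 bp to the gene end neither list had a peak. A ratio as low as that of TGFB2 was found in 7.38% of all genes with control cover. The antisense RNA gene TGFB2-AS1 overlaps its start, and ChIP-seq reads do not tell the strands apart.

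TGFB1, the ligand gene on chromosome 19 (41330323 to 41353922, minus strand), had its peaks at the start and beyond the end. The window held 7 knockdown peaks and 9 control peaks, covering 3487 bp (knockdown) and 8887 bp (control). Inside the gene both lists were confined to its first part, with 1064 bp under 2 knockdown summits and 2035 bp under 3 control summits. The knockdown peaks reached 1231 bp past the start and the control peaks 2500 bp. The peaks after the gene end covered 1809 bp (knockdown) and 5956 bp (control). Of these, 2 knockdown and 4 control peaks lay on or within 1000 bp of CCDC97, the next gene, and cannot be assigned to TGFB1. The upstream peak, with its summit 10197 bp (knockdown) and 10083 bp (control) before the start, lay on or within 1000 bp of B9D2 and TMEM91. The start peak was also within 1000 bp of B9D2.

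SMAD7 (chromosome 18, 48919853 to 48950965, minus strand) had 6 knockdown peaks over 4682 bp and 13 control peaks over 12283 bp. Around its start a single control peak of 5486 bp met 3 knockdown peaks, which together covered 3624 bp of it. The control library had further peaks along the gene, up to 28221 bp past the start. The knockdown library had 1 beyond the start region, 8347 bp in. Within the gene 6.66% was covered in the knockdown list and 27.2% in the control list. Upstream, 2359 bp (knockdown) and 2476 bp (control) were covered. The knockdown length is that of a peak of 2044 bp near the start and a peak of 315 bp further upstream. After the gene end 1 knockdown peak of 252 bp stood against 3 control peaks. The knockdown peak of 315 bp, with fold 7.39 and 14 reads, had its summit 9572 bp upstream of the start and no control partner.

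SKIL (chromosome 3, 170357715 to 170396849, plus strand) had 1 knockdown peak and 8 control peaks. The start peak was 2357 bp wide in the knockdown list and 2975 bp in the control list. The other 7 control peaks held 10 to 16 reads at the summit. Of these, 4 followed the start within 3943 bp and 3 lay after the gene end, between 39666 and 42131 bp from the start. The knockdown list had no peak in either place.

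SKI (chromosome 1, 2228319 to 2310213) had 4 knockdown peaks over 5270 bp and 8 control peaks over 7887 bp, a ratio of 0.668 that is close to the median of all genes. The table gives no strand for it, and its peaks are placed from the lower-coordinate end. That end carried a single knockdown peak of 2744 bp, where the control list had 2 peaks of 1409 and 963 bp. Both lists had a peak within the gene about the same place, with summits 62658 bp (knockdown) and 62702 bp (control) from that end and folds of 10.5 (knockdown) and 8.36 (control). Beyond the higher-coordinate end a pair of peaks met, 1320 bp wide with fold 12.3 in the knockdown list and 2657 bp wide with fold 21.5 in the control list. The noncoding gene LOC124903824 is annotated at that place. A weak knockdown peak of 225 bp and 10 reads, 27811 bp from the lower end, had no control partner.

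PMEPA1 (chromosome 20, 57648396 to 57711472, minus strand) carried the most Pol II cover of the 9 in both libraries. It had 14 knockdown peaks over 15528 bp and 19 control peaks over 36577 bp. A single control peak of 21232 bp ran from the start far into the gene. In the knockdown list the same stretch was broken into 11 peaks that covered 13878 bp of it, the widest 5928 bp. Past 24860 bp from the start the knockdown list had a single peak, 232 bp wide, while the control list had 11 with summits inside the gene. Within the gene 23.9% was covered in the knockdown list and 53.4% in the control list. Upstream, 423 bp (knockdown) and 1474 bp (control) were covered, and NKILA, a noncoding RNA gene, overlaps the start.

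The ID genes are short, so that peaks run past both of their ends. ID1 (chromosome 20, 31605289 to 31606510, plus strand) was covered over its whole length in both lists. Its peak was 5343 bp wide in the knockdown list and ranked 84 of 26387 by fold. In the control list it was 6810 bp wide and ranked 76 of 36345. After the start the knockdown peak reached 2914 bp and the control peak 4479 bp. ID3 (chromosome 1, 23557926 to 23559501, minus strand) had a single control peak of 6274 bp, which met 4 knockdown peaks that covered 4686 bp of it. After the gene end ID3 had 3194 bp under knockdown peaks and 3918 bp under control peaks. Before its start 3 weak control peaks of 11 or 12 reads had no partner. ID2 (chromosome 2, 8682056 to 8684461, plus strand) had the smallest cover of the 9, 1015 bp (knockdown) and 2706 bp (control). Its start peak was 556 bp wide in the knockdown list and 816 bp in the control list, and the rest lay upstream, where ID2-AS1 is annotated.

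**Figure D2:**
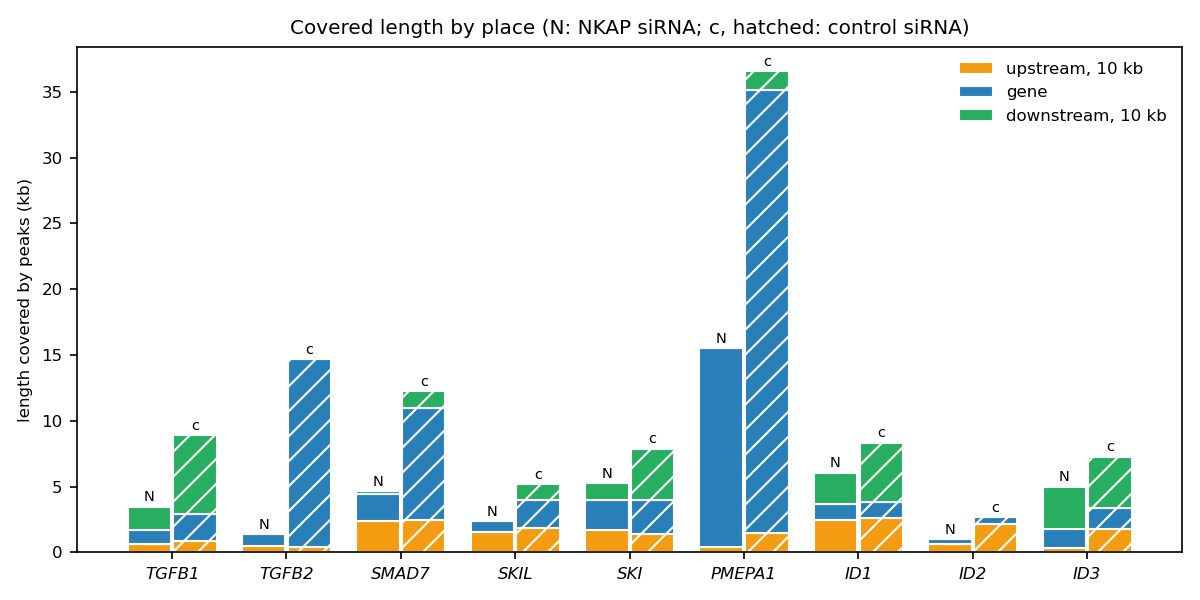
Length under peaks by gene (kb), split into the 10000 bp upstream, the gene and the 10000 bp downstream (for SKI, lower and higher coordinates), with the NKAP siRNA bar (N) left of the hatched control siRNA bar (c). The control bar is the taller for each gene, and the gap inside the gene is widest at PMEPA1 (15105 bp knockdown, 33677 bp control) and TGFB2 (873 bp knockdown, 14220 bp control).

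At the gene ends the strongest summit held fewer depth-scaled reads in the knockdown library at 8 of the 9 genes. The reads at a summit were recovered from the fold and p-value of each peak, and the knockdown reads were divided by 0.857 for depth. The strongest gene-end summit of TGFB2 held 29 knockdown reads (95% Poisson interval 19.4 to 41.6) and 68 control reads (52.8 to 86.2), a depth-scaled ratio of 0.498 (0.311 to 0.779). At ID3 it held 35 knockdown and 67 control reads, a ratio of 0.610 (0.393 to 0.931). At ID1 it held 112 knockdown and 173 control reads, a ratio of 0.755 (0.590 to 0.964). These 3 intervals lie below 1. Those of ID3 and ID1 include 0.902, the median ratio of all genes, and that of TGFB2 does not. The share of all genes with an interval below 1 was not computed. All these intervals cover counting error only, in 1 library each, and the summits are the highest points of their peaks.

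The intervals of the other 6 genes included 1. SKIL had 35 knockdown and 60 control reads (ratio 0.681), TGFB1 23 knockdown and 39 control (0.688), and PMEPA1 54 knockdown and 88 control (0.716). The SKIL peaks overlapped, but their summits lay apart, 110 bp after the start (knockdown) and 714 bp before it (control). ID2 had 31 knockdown and 50 control reads (0.724), and SMAD7 39 knockdown and 53 control (0.859). SKI was the exception in direction, with 33 knockdown and 34 control reads and a ratio of 1.13 (0.680 to 1.88). With the strongest peak of the whole window in place of the gene end, all 9 ratios lay below 1, as did 67.5% over all genes. At SKI (0.856) that measure sets the knockdown peak at the lower end, with 33 reads, against the control peak beyond the other end, with 45 reads, and so does not compare 1 site. At TGFB1 (0.786) it is the peak near B9D2 and TMEM91, with 31 knockdown and 46 control reads. Of the 9, 2 were at least 1.5-fold lower and none at least 1.5-fold higher on this measure, against 9.84% and 2.65% of all genes.

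Over the 10948 genes whose gene-end reads were recovered in each library, the median ratio was 0.902, with quartiles of 0.778 and 1.06. The median of the 9 genes was 0.716. The ratio was below 1 at 8 of the 9 genes and in 66.7% of all genes, and at least 1.5-fold lower at 2 of the 9 (TGFB2 and ID3) and in 9.76% of all genes. It was at least 1.5-fold higher in 2.73% of all genes and at none of the 9. A ratio as low as that of TGFB2 was found in 1.44% of all genes, and one as low as that of ID3 in 5.32%.

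**Figure D3:**
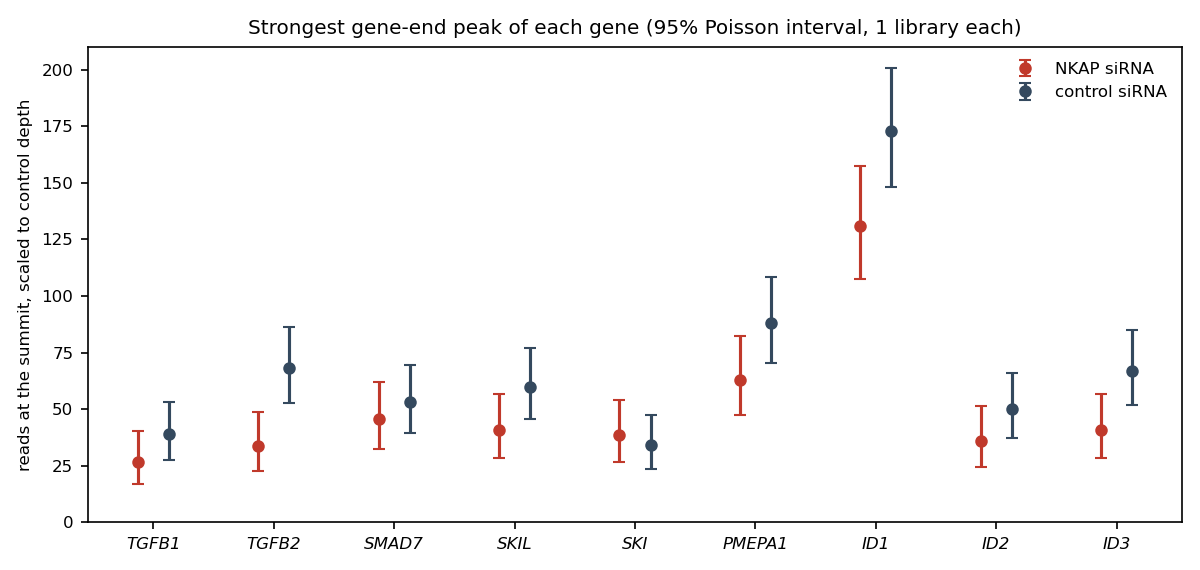
Reads at the summit of the strongest gene-end peak, scaled to the control depth, for the NKAP siRNA library (red, left) and the control siRNA library (dark, right), with 95% Poisson intervals for counting error. The knockdown value is the lower for 8 of the 9 genes, and the intervals of TGFB2 (29 knockdown and 68 control reads before scaling) do not overlap.

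**Figure D4:**
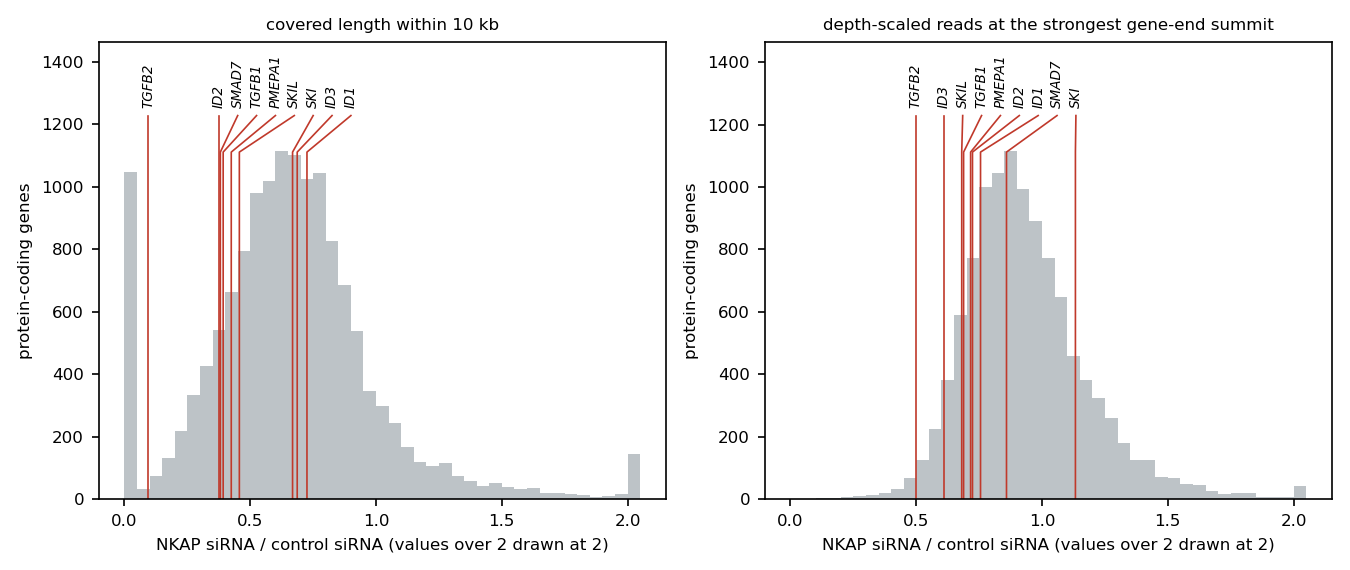
Ratio of NKAP siRNA to control siRNA over protein-coding genes, for covered length within 10000 bp (left) and depth-scaled reads at the strongest gene-end summit (right), as counts of genes, with red lines for the 9 genes. On the left TGFB2 (0.0938) lies apart from the other 8, which lie between 0.375 and 0.725; on the right SKI (1.13) is the single gene above 1.

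Most other genes of the pathway also carried a peak at a gene end in each library. Of 80 such genes, grouped by role, 62 did so in both lists, 1 in the knockdown list only, 3 in the control list only and 14 in neither. Some of the peaks counted in both lists also lay at another gene and cannot be assigned to the pathway gene alone. Over all protein-coding genes, 10986 of 19974 had such a peak in both lists. Of the 12247 with one in either list, 89.7% had it in both. On the same base, 2.38% had it in the knockdown list only and 7.92% in the control list only. That base leaves out genes with a peak in neither list, which the 80 include. BMP2, a bone morphogenetic protein gene, was the knockdown-only gene, with a fold of 5.94 and 14 reads, and its closest control peak was 2361 bp away. BMP7, of the same family, was in the control list only (fold 6.02, 23 reads), as were CHRDL1, which encodes a secreted antagonist of these ligands (fold 7.47, 15 reads), and TAGLN, the actin-binding gene induced by TGF-beta in smooth muscle (fold 8.09, 20 reads). TAGLN had 9 control peaks over 3596 bp in its window and no knockdown peak.

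Covered length was at least 1.5-fold lower in the knockdown list at 33 of the 75 pathway genes with any cover and at least 1.5-fold higher at 1, and the median ratio was 0.688. The share that was lower, 44.0%, is near the 51.9% of all genes, of which 4.54% were at least 1.5-fold higher. By role the count was 6 of 11 ligand and latency genes, 4 of 10 receptor genes, 3 of 7 SMAD genes, 7 of 16 inhibitor and regulator genes, 2 of 5 cofactor genes and 11 of 26 other target genes. The medians ran from 0.625 for ligand and latency genes to 0.751 for cofactors. All 7 SMAD genes had less cover in the knockdown list, where 86.9% of all genes did.

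Depth-scaled reads at the strongest gene-end summit were lower in the knockdown library at 37 of the 62 pathway genes with a peak in both lists, against 66.7% of all genes. Of the 62, they were at least 1.5-fold lower at 7 and at least 1.5-fold higher at 2. Over all genes these shares were 9.76% and 2.73%, so both counts are near what all genes gave. Both sets are named after their values were seen. The 7 lower were COL1A1 (0.302), FN1 (0.433), THBS1 (0.468), SMAD6 (0.517), NOG (0.565), SMAD9 (0.640) and LEMD3 (0.656). The NOG summits lay 158 bp (knockdown) and 2006 bp (control) from a gene end, so its ratio does not compare 1 site. The 2 higher were CDKN1A and IL11. CDKN1A, a cell cycle inhibitor gene, had 72 knockdown and 32 control reads (2.63). Its summits lay 2297 bp (knockdown) and 217 bp (control) from a gene end, so this ratio does not compare 1 site. Its covered length was lower in the knockdown list, 8631 bp against 10642 bp in the control list. IL11, a cytokine gene, had 34 knockdown and 26 control reads (1.53). The median ratio of the pathway genes was 0.912, near the 0.902 of all genes. By role it was 0.979 for ligand and latency genes, 0.913 for receptor genes, 0.731 for SMAD genes, 0.875 for inhibitors and regulators, 1.03 for cofactors and 0.967 for other targets.

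Within each role the gene of highest knockdown fold was taken as an example. THBS1 encodes thrombospondin, which releases latent TGF-beta. It had 55 knockdown and 137 control reads at its gene end (ratio 0.468), and 2463 bp (knockdown) and 19352 bp (control) of cover. TGFBR1, the type I receptor gene, had 48 knockdown and 58 control reads (0.966). SMAD4, the shared partner of the SMADs that the receptors phosphorylate, had 40 knockdown and 44 control reads (1.06). BAMBI, a decoy receptor gene, had 49 knockdown and 80 control reads (0.715), and CREBBP, a histone acetyltransferase gene, 61 knockdown and 69 control reads (1.03). JUNB, an AP-1 gene and early target, had 93 knockdown and 109 control reads (0.996). Their gene-end folds in the knockdown list were 22.1 (THBS1), 22.7 (TGFBR1), 20.1 (SMAD4), 21.8 (BAMBI), 26.8 (CREBBP) and 46.1 (JUNB). In both lists the THBS1 peak also lay at LOC124903470 and the JUNB peak at HOOK2, so these cannot be assigned to the named gene alone.

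**Figure D5:**
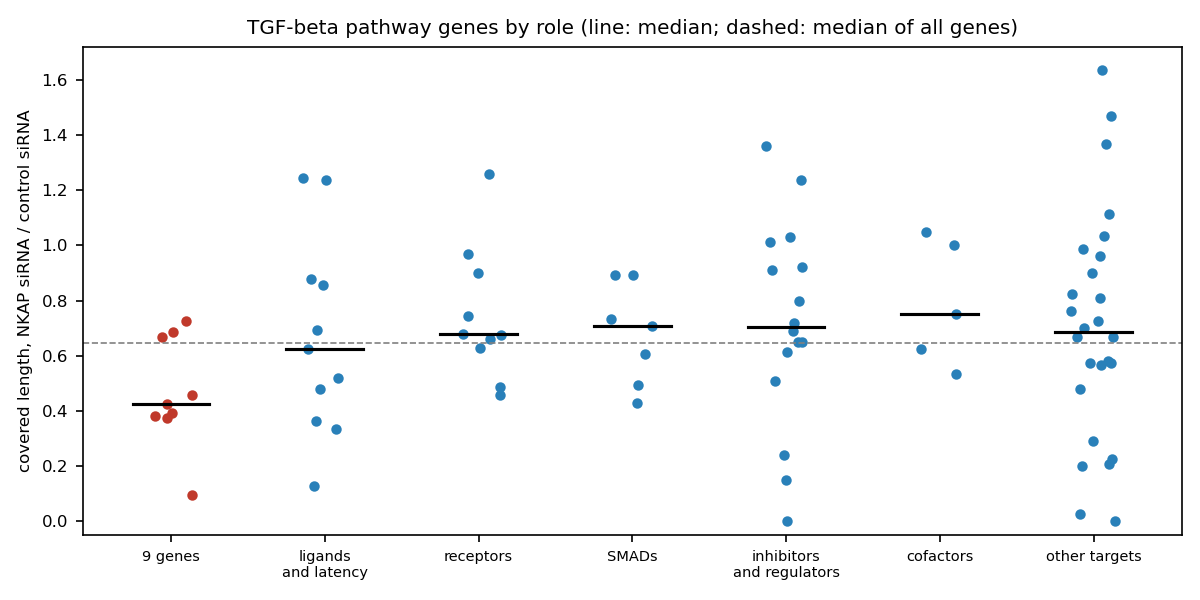
Ratio of covered length, NKAP siRNA over control siRNA, for the 9 genes (red) and the other pathway genes by role (blue), with a line at each group's median and a dashed line at the median of all genes (0.647). The 9 genes have a median of 0.425, and the roles have medians between 0.625 and 0.751.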

How the data were processed

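Pol II ChIP-seq of 2 U2OS libraries was analysed. MACS2 2.1.0, Bowtie 1.1.2, Trimmomatic 0.33 and bcl2fastq 2.17 are named, with build hg38, per the submitters' processing notes. Which library served as background, and with what settings, is not given in the sources used here. A deposited list held peaks of 1 library. For each peak the authors' deposited values were a score, the fold enrichment of the summit as a ratio to background, the −log10 p-value and the −log10 q-value, used here to describe and rank peaks within a list.

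Whole reads at summits were recovered from fold = (pileup + 1)/(background + 1) and the Poisson p-value, within 0.01 of a read for 99.99% of knockdown and 99.9% of control peaks. The median summit held 19 (knockdown) and 18 (control) reads. Relative depth came from the lowest background and the smallest peak width. Peaks on chromosomes 1 to 22 and X were joined to RefSeq genes (GRCh38.p14). Overlap meant at least 1 bp. Gene-end peaks lay within 1000 bp of a gene's start or end. Covered length was called at 1.5-fold. Intervals are 95% Wilson, exact Poisson, or exact Clopper-Pearson on the split of reads between the summits. The recovery and cover steps were tested on simulated data (Python 3.11.15, scipy 1.17.1).

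The 9 genes and the pathway list were chosen with earlier results of these data known. Named pathway genes were those with a gene-end peak in 1 list only and, in each role, the gene of highest knockdown fold. Pathway genes with gene-end reads at least 1.5-fold lower or higher were named after the data were seen. The alternatives were a −log10 q-value of at least 5, equal numbers of strongest peaks, other windows, gene starts only, other overlap rules and, added after the data were seen, a control list limited to peaks that would pass at the knockdown depth.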

Additional observations from a re-analysis of the deposited data

How the results depend on the processing

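Under the alternatives, 47 of 51 values for the genes as a group stayed within 1.5 times or within their counting interval. So did all 81 values for single genes. Part of these values could not change. Equal numbers of strongest peaks and the limit to the knockdown depth left the knockdown list as it was. The q-value limit and equal numbers also kept the strongest peak of each gene. The counts therefore do not measure how firm the results are. With equal numbers of strongest peaks, the control list held 53 peaks in the windows, of which 47.2% were overlapped, and the ratio of covered length was 0.492. Where at least 0.5 of a peak's length had to be covered, 14.3% of control peaks counted as overlapped. Where summits had to lie within 500 bp of each other, 45.2% of knockdown peaks did. The ratio of covered length ran from 0.423 (windows of 20000 bp) to 0.492, and at TGFB2 from 0.0881 to 0.130. Limiting the control list to peaks that would pass at the knockdown depth left 80 control peaks and a ratio of 0.439; peak widths were not narrowed, so the part of depth in the covered length was not tested beyond this. Gene starts alone gave peaks at 8 of the 8 genes with a known strand in both lists. No paired analysis was possible because each siRNA had 1 Pol II library, and for the same reason no library could be left out. Summits in these windows held as few as 10 (knockdown) and 9 (control) reads, so a peak missing from a list may lie just under the threshold.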
